A study of Mus musculus with 2 samples.

Results

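The genes examined were 31 subunits of glutamate and GABA receptors, taken by symbol from a list, out of 32285 genes in the tables. They were 4 AMPA, 5 kainate and 5 NMDA receptor subunits, the delta receptor subunit Grid1, 6 metabotropic glutamate receptors, 8 GABA-A receptor subunits and 2 GABA-B receptor subunits. All 31 had at least 1 UMI in the cells kept. UMIs are molecular tags, so that each UMI stands for a single captured transcript. The cells came from the dorsal telencephalon of mouse embryos at embryonic day 14.5 (E14.5) and were sequenced on a droplet platform that reads RNA cell by cell, as 2 libraries. These are called replicate 2 and replicate 4 after the number that ends their titles, which are otherwise alike. Whether each library came from 1 embryo or a pool is not given in the sources used here. Both libraries belonged to 1 group, wild-type (WT) control embryos of the EomesDot line, with no treatment named, so the comparisons below are between cell classes within these embryos. The study's methods describe C57BL/6J embryos, and how these relate to the EomesDot line is not stated. The labels name the tissue brain hemispheres and the dissected part the dorsal telencephalon.

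Glutamate and GABA are the main excitatory and inhibitory transmitters of the adult forebrain. Ionotropic receptors are channels built from several subunits, so the subunits a cell makes set which channels it can assemble, whereas metabotropic glutamate receptors and GABA-B receptors act through G proteins. In the embryonic cortex both transmitters are present before most synapses form, and immature cells hold so much chloride that GABA can depolarise them. Radial glial cells (RGCs) divide along the ventricle and give rise to intermediate progenitor cells (IPCs), which give rise to excitatory neurons, while interneurons migrate in from the medial ganglionic eminence (MGE) and other parts of the subpallium.

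Positions and promoters were read from RefSeq on the build GRCm38.p6, to which mm10, the build named for these libraries, corresponds. A group of 4 GABA-A subunit genes lay together on chromosome 5: Gabrg1 at chr5:70751047-70842617, Gabra2 at chr5:70958392-71095849, Gabra4 at chr5:71569734-71658308 and Gabrb1 at chr5:71657921-72149572. Gabra4 on the minus strand and Gabrb1 on the plus strand overlapped head to head by 388 bases, with start sites 387 bases apart. Their 3′ ends, where this kit captures transcripts, lay 88.2 kb and 491 kb from the overlap, and whether the counting used strand is not given in the sources used here. Promoter windows from 250 bases before to 50 bases after the start site were held for 22 of the 31 genes (29 windows). They are shown here for this neighbouring pair, both of which were higher in RGC-like than in IPC-like cells, and for Grik3 and Gabbr2, which had almost no UMIs in either progenitor class. The window of Grik3 belongs to a start site inside the gene, whose span begins at chr4:125490259. Capitals mark the GC box GGGCGG on either strand, read on the strand of the gene.
Gabra4, chr5:71658259-71658558, minus strand: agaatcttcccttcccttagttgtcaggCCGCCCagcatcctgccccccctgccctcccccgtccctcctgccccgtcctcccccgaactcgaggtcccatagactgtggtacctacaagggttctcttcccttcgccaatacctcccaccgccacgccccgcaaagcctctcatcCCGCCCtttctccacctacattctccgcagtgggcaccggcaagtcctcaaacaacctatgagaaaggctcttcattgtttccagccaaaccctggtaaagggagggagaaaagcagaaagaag
Gabrb1, chr5:71657671-71657970, plus strand: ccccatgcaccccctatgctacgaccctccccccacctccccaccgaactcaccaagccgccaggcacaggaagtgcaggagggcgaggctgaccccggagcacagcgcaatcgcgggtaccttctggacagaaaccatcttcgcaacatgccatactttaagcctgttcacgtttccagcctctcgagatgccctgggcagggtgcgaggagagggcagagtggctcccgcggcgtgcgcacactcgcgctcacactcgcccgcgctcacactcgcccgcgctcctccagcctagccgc
Grik3, chr4:125490446-125490745, plus strand: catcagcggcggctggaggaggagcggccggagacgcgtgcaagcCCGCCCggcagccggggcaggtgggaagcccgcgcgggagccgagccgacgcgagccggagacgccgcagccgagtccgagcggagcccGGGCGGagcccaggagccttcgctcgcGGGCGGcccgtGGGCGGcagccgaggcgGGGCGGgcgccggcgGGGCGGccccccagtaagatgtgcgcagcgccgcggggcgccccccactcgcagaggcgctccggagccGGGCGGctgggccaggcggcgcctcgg
Gabbr2, chr4:46991665-46991964, minus strand: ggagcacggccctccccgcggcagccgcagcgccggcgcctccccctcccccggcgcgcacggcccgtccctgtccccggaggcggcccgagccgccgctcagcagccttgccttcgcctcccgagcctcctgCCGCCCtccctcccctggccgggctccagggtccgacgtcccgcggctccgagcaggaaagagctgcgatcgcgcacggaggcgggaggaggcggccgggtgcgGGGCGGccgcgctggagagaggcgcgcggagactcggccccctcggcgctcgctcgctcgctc
The window of Gabra4 held 2 GC boxes, that of Gabrb1 0, that of Grik3 7 and that of Gabbr2 2. GC content was 58.7%, 66.0%, 82.0% and 80.3% in the same order, beside a median of 52.7% over all 32851 windows and 61.0% over the 29 windows of receptor genes. A GC box was found in 15 of these 29 windows and in 35.7% of all windows. Searched on both strands, the homeodomain core TAATTA was found in the window of Gabrg1 alone (5.29% of all windows), the E-box CAGATG in that of Gabra5 alone (17.2%) and TTCAGCACC, the left part of the RE1 element, in that of Grm2 alone (0.371%). TATAAA was found for Gabra3 and Gabrb2 (13.6% of all windows), and none of these strings contains another. No window was held for Gria1, Gria3, Grik1, Grin2a, Grin2b, Grin3a, Grid1, Grm4 and Grm5.

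The libraries held 1712 and 2589 barcodes with 40267872 and 49422007 UMIs, and 3 barcodes occurred in both. After filtering, 1199 cells of replicate 2 and 1923 of replicate 4 were kept, with medians of 30810 and 22826 UMIs. Cells were clustered without the 31 receptor genes and clusters were named from marker lists, so that a name such as RGC-like rests on other genes. Among the named classes that had 10 or more cells in both libraries, RGC-like cells numbered 210 and 356, IPC-like cells 124 and 167, excitatory neuron-like cells 581 and 909, MGE interneuron-like cells 54 and 82, Cajal-Retzius-like cells 16 and 24, hem or choroid plexus-like cells 62 and 81 and vascular or meningeal-like cells 28 and 49. Another 22 and 78 GABAergic neuron-like cells could be given no sub-class and were left out of the comparisons. Every marker of the class's own list was detected in both libraries in these 7 classes. Vascular or meningeal-like cells also held erythroid markers, whose 7 genes summed to 61.5 and 15757 CPM, beside 6013 and 8154 CPM for the 13 markers of the class itself. In cluster 20, with 9 and 18 of its cells, the 10 leading genes held 4 haemoglobin genes and 2 vascular markers, so the label is not borne out for that cluster. Of the 1490 excitatory neuron-like cells, 541 lay in 3 clusters that also had 5 or 6 of 9 IPC markers raised, here called the IPC-marked clusters, while the other 5 clusters had 0 to 2 raised. Hem or choroid plexus-like cells also had all 12 RGC markers raised. Striatal projection neuron-like cells, a subpallial type, numbered 1 in replicate 2 and 65 in replicate 4. Values below are in CPM, UMIs per 1e+06 UMIs of all genes in the sum of a class in a library, given for replicate 2 and then replicate 4, and levels are set side by side between classes, not between genes.

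All 31 genes were measured in the 7 classes (14 sums). The vascular or meningeal-like class was left out of the order of levels, a choice made after seeing the data. Over the other 6 classes, 20 genes were highest by mean CPM in MGE interneuron-like cells, beside 17.7% of all genes tested, and for 15 of these both libraries lay above both libraries of the next class, beside 9.75% of all genes. Cajal-Retzius-like cells, the early reelin-making neurons of the marginal zone, were highest for Grik4, Grin1, Grin2a, Grm2 and Grm8, without overlap with the next class for 3 of them, beside 21.2% of all genes highest there and 9.69% without overlap. Excitatory neuron-like cells were highest for Gria2 and Gria3, hem or choroid plexus-like cells for Gabra2, Gabrb1 and Gabrg1 and RGC-like cells for Gabra4. Of all genes, 6.74%, 20.2% and 21.6% were highest in these classes, in the same order. The highest and the next class overlapped for Grik2, Grin1, Grin2a, Grin3a, Grm3, Gabbr1 and Gabbr2. With vascular or meningeal-like cells included, Grm3 and Grm7 were highest there, Grm7 without overlap (24.3% and 16.2% of all genes), and MGE interneuron-like cells were highest for 18 and without overlap for 13 (15.1% and 8.43% of all genes).

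These orders also leave out the GABAergic cells without a sub-class, in which Grik3 was at 514 and 408 CPM, Grin2d at 4.57 and 10.02, Grm4 at 20.6 and 13.9, Grm7 at 20.6 and 392 and Gabbr1 at 105 and 101. The libraries held different mixes of them. Sub-cluster 2, led by the division gene Top2a, had 7 and 48 cells, sub-cluster 4 had 15 and 4 and sub-cluster 8, led by Sst, 0 and 26. With these cells added to the 6 classes, the 5 receptor genes just given were highest there by mean CPM, Gabbr1 without overlap. Of all genes, 14.1% were highest there and 4.14% without overlap. Cajal-Retzius-like cells were then without overlap for Grik4 and Grm2 only (8.72% of all genes), since Grm8 was at 468 and 116 CPM in the added cells. MGE interneuron-like cells were then highest for 15 genes and without overlap for 11, beside 14.3% and 6.91% of all genes. The 7 and 27 CGE or LGE interneuron-like cells are outside these orders too. In these, Grik3 (497 and 731 CPM), Grin2d (19.5 and 77.5) and Grm7 (87.6 and 195) lay above both MGE interneuron-like libraries. Grik5, Grin3a and Gabra3 were higher in them by mean CPM, with overlap. The other genes of the 20 named for MGE interneuron-like cells were lower in them by mean CPM.

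**Figure D1:**
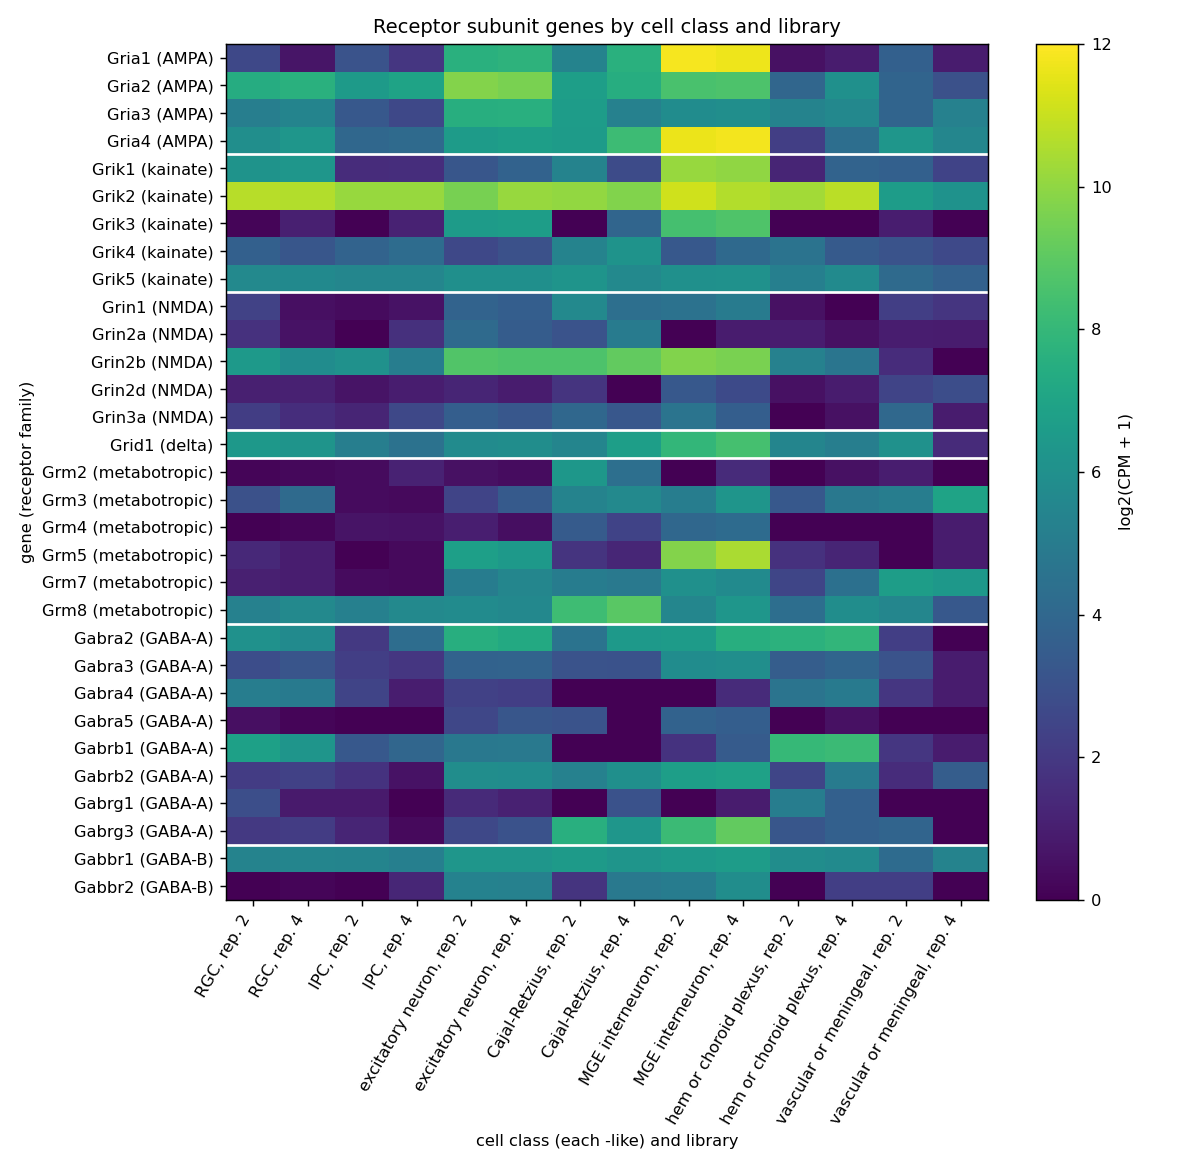
Level of each of the 31 receptor genes as log2(CPM + 1), by colour, in the UMI sums of 7 cell classes (columns, 1 per library), with rows grouped by receptor family. Rows are to be read from left to right, since levels of different genes are not on a per-length scale. Gria1 and Gria4 are brightest in both MGE interneuron-like columns, and most rows are darker in IPC-like than in excitatory neuron-like columns.

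The classes of the excitatory lineage were compared with edgeR's quasi-likelihood test over 14156 genes, with a gene called at an adjusted p under 0.05. Fold changes are given on the log2 scale, with their SE after the ± sign. From RGC-like to IPC-like cells, 7 of the 31 receptor genes were called and all 7 were lower. Over all genes 26.3% were called, 13.3% higher and 12.9% lower. From IPC-like to excitatory neuron-like cells 22 were called, 21 higher and 1 lower, where 36.6% of all genes were called (19.6% higher and 17% lower). Excitatory neuron-like cells set directly against RGC-like cells gave 21 calls, 18 higher and 3 lower, where 52.5% of all genes were called (28.1% higher and 24.4% lower). The median log2 fold change of the 31 genes was -1.06 in the first of these comparisons (-0.67 with genes at 0 in 1 class set to their bound), 2.80 in the second and 1.19 in the last, beside -0.0058, 0.016 and 0.063 over all genes tested. The comparisons share their sums, and p-values measure only the spread between these 2 libraries. The libraries of the 2 classes did not overlap for 68.5%, 76.3% and 83.5% of all genes in these comparisons. With classes made from one random part of the UMIs and tests on the other, 7, 22 and 21 of 27 receptor genes tested were called, where 3864, 4210 and 6431 of 11621 genes were. The genes called were in part different, since from RGC-like to IPC-like cells Gabra2 (0.0031) and Grm3 (0.18) turned sign and Grid1 and Gabra3 gained a call, and in the next step Grm3 turned sign (-0.35).

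Of the AMPA receptor subunits, whose channels carry most fast excitatory transmission, all 4 rose from IPC-like to excitatory neuron-like cells, and Gria3 and Gria4 were lower in IPC-like than in RGC-like cells. Gria2, the subunit that keeps these channels closed to calcium, was at 169 and 197 CPM in RGC-like, 93.1 and 122 in IPC-like and 878 and 777 in excitatory neuron-like cells. Both neuronal values lay above all progenitor values, and Gria2 rose from IPC-like to excitatory neuron-like cells (edgeR log2 fold change 3.08 ± 0.44, adjusted p = 0.000144). Gria3 was at 33.7 and 41.3 CPM in RGC-like, 8.77 and 5.11 in IPC-like and 186 and 190.3 in excitatory neuron-like cells. It fell in the first step (edgeR log2 fold change -2.35 ± 0.38, adjusted p = 0.000706) and rose in the second (edgeR log2 fold change 4.90 ± 0.38, adjusted p = 1.21e-06), and the 3 classes did not overlap. Gria4 was at 60.4 and 76.9 CPM in RGC-like, 14.9 and 16.6 in IPC-like and 94.9 and 105 in excitatory neuron-like cells. It fell by 2.03 and then rose by 2.80 on the log2 scale (edgeR adjusted p = 0.0123 and 0.00115). Gria1, which came from 37 and 6 UMIs in RGC-like cells and 28 and 11 among IPC-like cells, was at 4.98 and 0.626 CPM in the former, 7.45 and 2.68 CPM in the latter and 194 and 218 CPM in excitatory neuron-like cells (edgeR log2 fold change 5.50 ± 0.80, adjusted p = 0.00016 from IPC-like cells). Its log2 ratio to IPC-like cells was 4.77 in replicate 2 alone and 6.31 in replicate 4 alone.

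Of the kainate receptor subunits, whose channels also modulate transmitter release, Grik1 and Grik3 changed most along the lineage. Grik1 was at 71.3 and 77.9 CPM in RGC-like, 1.86 and 1.95 in IPC-like and 8.30 and 12.8 in excitatory neuron-like cells. RGC-like cells were thus highest in both libraries, Grik1 fell into IPC-like cells (edgeR log2 fold change -5.18 ± 0.63, adjusted p = 8.7e-05), and it was also lower in excitatory neuron-like than in RGC-like cells (edgeR log2 fold change -2.59 ± 0.43, adjusted p = 0.000285). Grik3 had 1 and 10 UMIs in RGC-like cells and 0 and 5 among IPC-like cells but 1939 and 2390 in excitatory neuron-like cells, where it was at 95.2 and 103 CPM. It rose from IPC-like cells (edgeR log2 fold change 7.37 ± 0.59, adjusted p = 2.82e-06) with no overlap. The log2 ratio was 6.17 in replicate 4 alone, while 8.14 in replicate 2 rests on the prior count, since IPC-like cells had 0 UMIs there. Grik2, at 1696 and 1582 CPM in RGC-like, 1142 and 1128 in IPC-like and 744 and 1119 in excitatory neuron-like cells, was not called in any of the 3 comparisons. The subunits Grik4 and Grik5, which form working channels only together with the others, moved less. Grik4 was at 13.3 and 18.01 CPM in IPC-like and 5.06 and 6.81 in excitatory neuron-like cells (edgeR log2 fold change -1.26 ± 0.37, adjusted p = 0.0184), the only receptor gene called lower in this step. Grik5 was at 44.4 and 44.8 CPM in IPC-like and 61.4 and 62.3 in excitatory neuron-like cells (edgeR log2 fold change 0.61, adjusted p = 0.0124).

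Of the NMDA receptor subunits, Grin1, Grin2a and Grin2b rose from IPC-like to excitatory neuron-like cells. Grin2b, the glutamate-binding subunit that prevails before birth, was at 85.6 and 55.95 CPM in RGC-like, 67.01 and 33.3 in IPC-like and 431 and 396 in excitatory neuron-like cells (edgeR log2 fold change 3.18 ± 0.35, adjusted p = 1.94e-05 from IPC-like cells). Neurons were above both progenitor classes in both libraries. Grin1, the subunit every NMDA receptor needs, had 1 and 2 UMIs in IPC-like cells and 269 and 253 in excitatory neuron-like cells (CPM ratio 31.4, 95% counting interval 10.7 to 153, edgeR adjusted p = 0.000948). Against RGC-like cells its log2 ratio was 1.80 in replicate 2 and 4.02 in replicate 4, where RGC-like cells had 31 and 4 UMIs. Grin2a was at 0 and 2.19 CPM in IPC-like and 16.9 and 10.4 in excitatory neuron-like cells and rose (edgeR log2 fold change 3.69 ± 0.81, adjusted p = 0.00321). Its log2 ratio was 2.21 in replicate 4 alone, while 5.67 in replicate 2 rests on the prior count, at 0 UMIs in IPC-like cells. Grin3a, whose channels pass little calcium, was at 3.50 and 1.98 CPM in RGC-like and 11.1 and 8.71 in excitatory neuron-like cells and was higher in the latter (edgeR log2 fold change 2.10, adjusted p = 0.012). Grin2d had at most 28 UMIs per library in these classes and was not called. Grid1, a delta receptor that joins synapses through cerebellins, was at 82.4 and 73.6 CPM in RGC-like, 34.6 and 22.1 in IPC-like and 53.6 and 58.2 in excitatory neuron-like cells and was not called.

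Among the metabotropic receptors, Grm5 and Grm7 separated neurons from both progenitor classes. Grm5, which couples to phospholipase C, had 12 and 9 UMIs in RGC-like, 0 and 1 in IPC-like and 2177 and 2073 in excitatory neuron-like cells. It was higher in excitatory neuron-like than in RGC-like cells (edgeR log2 fold change 6.50 ± 0.34, adjusted p = 2.81e-08), and its CPM ratio to IPC-like cells was 768 (95% counting interval 138 to 30328), since a single UMI was counted there. Grm7, a presynaptic receptor that lowers cyclic AMP, had 8 and 9 UMIs in RGC-like, 1 and 1 in IPC-like and 655 and 1045 in excitatory neuron-like cells and was at 32.2 and 45.1 CPM in neurons (edgeR log2 fold change 5.47 ± 0.46, adjusted p = 8.08e-07 against RGC-like cells, and 4.69 in replicate 2 alone). Grm3 was at its lowest in IPC-like cells, with 51 and 159 UMIs in RGC-like, 1 and 1 in IPC-like and 92 and 220 in excitatory neuron-like cells (CPM ratio 48.6, 95% counting interval 13.3 to 404 for RGC-like over IPC-like cells, edgeR adjusted p = 0.012). Grm8 was at 37.2 and 49.9 CPM in RGC-like, 36.4 and 48.9 in IPC-like and 54.9 and 47.1 in excitatory neuron-like cells and was not called. Grm2 and Grm4 had at most 21 UMIs per library in the 3 classes, and of these Grm4 alone was called, in excitatory neuron-like against RGC-like cells (CPM ratio 11.3, 95% counting interval 1.88 to 462, edgeR adjusted p = 0.0185).

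Among the GABA-A receptor subunits, Gabrb1 and Gabra4 were highest in RGC-like cells and Gabra2, Gabra3, Gabra5 and Gabrb2 in excitatory neuron-like cells of the 3 lineage classes. Gabrb1 was at 113 and 75.1 CPM in RGC-like, 8.77 and 14.4 in IPC-like and 26.6 and 27.98 in excitatory neuron-like cells. RGC-like cells were highest in both libraries, and Gabrb1 fell into IPC-like cells (edgeR log2 fold change -2.92 ± 0.30, adjusted p = 4.02e-05) and was lower in excitatory neuron-like than in RGC-like cells (edgeR log2 fold change -1.55 ± 0.25, adjusted p = 0.000314). Its neighbour Gabra4 was at 33.5 and 29.6 CPM in RGC-like, 4.52 and 0.974 in IPC-like and 4.03 and 3.66 in excitatory neuron-like cells and also fell into IPC-like cells (edgeR log2 fold change -3.45 ± 0.45, adjusted p = 0.000202), with excitatory neuron-like cells below RGC-like cells as well (edgeR log2 fold change -2.80 ± 0.35, adjusted p = 4.37e-05). In each library alone the log2 ratio of IPC-like to RGC-like cells was -3.53 and -2.27 for Gabrb1 and -2.69 and -4.40 for Gabra4. Hem or choroid plexus-like cells had more Gabrb1, 259 and 287 CPM, and the 10 markers of that class together were at 28.4 and 29.2 CPM in RGC-like cells, beside 64789 and 32017 CPM in that class itself.

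Gabra2, at 65.2 and 52.7 CPM in RGC-like, 2.92 and 18.7 in IPC-like and 186 and 156 in excitatory neuron-like cells, was lowest in IPC-like cells. It was called in both steps (edgeR log2 fold change -2.32 ± 0.57, adjusted p = 0.00994, then edgeR log2 fold change 4.09 ± 0.58, adjusted p = 0.00013). In each library alone the first step was -4.21 and -1.39 and the second 5.95 and 3.18. Gabrb2, a beta subunit of the most common adult receptors, was at 3.37 and 4.07 CPM in RGC-like, 2.39 and 0.487 in IPC-like and 58.6 and 56.9 in excitatory neuron-like cells. It rose from IPC-like cells (edgeR log2 fold change 5.48 ± 0.69, adjusted p = 5.67e-05), by 4.54 and 6.21 in each library alone. Gabra5 had 3 and 1 UMIs in RGC-like, 0 and 0 in IPC-like and 101 and 192 in excitatory neuron-like cells, at least 17.6-fold higher than in IPC-like cells against a floor of 3 UMIs over both libraries (edgeR adjusted p = 0.000977). Gabra3 (edgeR log2 fold change 2.13, adjusted p = 0.000395) and Gabrg3 (3.11 and 0.0223, with 1.79 in replicate 2 and 3.77 in replicate 4 alone) also rose in this step. Gabrg1 had 47 and 8 UMIs in RGC-like cells and fewer than 40 per library in excitatory neuron-like cells, and was not called.

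The GABA-B receptor works as a pair, in which the product of Gabbr1 binds GABA and that of Gabbr2 carries the pair to the membrane and couples to the G protein. Gabbr1 was at 40.4 and 43.2 CPM in RGC-like, 41.5 and 35.05 in IPC-like and 78.7 and 78.2 in excitatory neuron-like cells (edgeR log2 fold change 1.17 ± 0.21, adjusted p = 0.000953). Gabbr2 had 0 and 1 UMIs in RGC-like cells and 0 and 6 among IPC-like cells, where Gabbr1 had 300 and 414 UMIs in RGC-like cells and 156 and 144 among IPC-like cells. In excitatory neuron-like cells Gabbr2 had 783 and 874 UMIs (38.4 and 37.7 CPM) and had risen from IPC-like cells (edgeR log2 fold change 5.74 ± 0.81, adjusted p = 0.000128). The log2 ratio was 4.52 in replicate 4 alone, while 6.84 in replicate 2 rests on the prior count, at 0 UMIs in IPC-like cells. Progenitor classes thus held UMIs of Gabbr1 with almost none of Gabbr2, and neurons held UMIs of both. Gabbr2 made up 32.8% and 32.5% of the UMIs of the pair in excitatory neuron-like cells, beside 0% and 0.241% in RGC-like cells and 0% and 4% among IPC-like cells. The count of 0 among the 300 UMIs of the pair in RGC-like cells of replicate 2 has an upper 95% Clopper-Pearson bound of 1.22%, for counting error only.

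**Figure D2:**
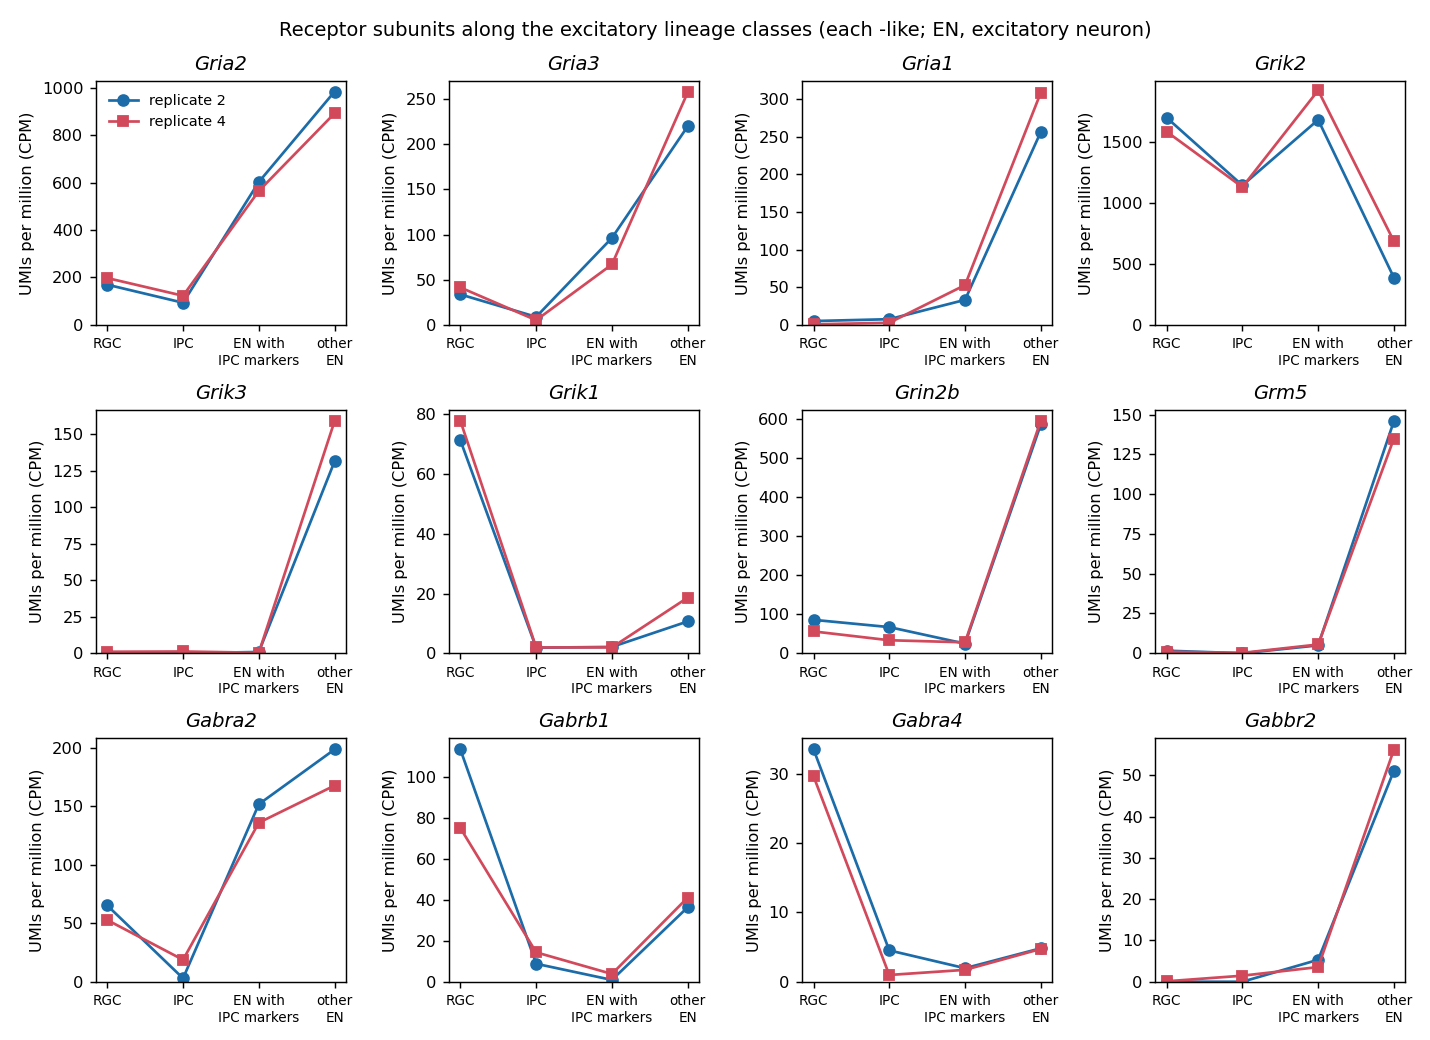
CPM of 12 receptor genes (1 panel each, own axis from 0) in RGC-like cells, IPC-like cells, the IPC-marked excitatory neuron-like clusters (EN with IPC markers) and the other excitatory neuron-like clusters, with 1 line per library. Gabrb1 starts at 113 and 75.1 CPM in RGC-like cells and drops to 8.77 and 14.4 in IPC-like cells, whereas Gria1, Grin2b and Gabbr2 stay low until the last class.

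Some of these calls depended on the processing. Of the 7, 22 and 21 calls in the 3 comparisons, 3, 17 and 15 were also called under every alternative. From RGC-like to IPC-like cells, the calls of Gria3 (5 of 12 alternatives), Gabra2 (4 of 12), Gria4 (3 of 12) and Grm3 (1 of 12) were lost, with edgeR or DESeq2 adjusted p of up to 0.968, 1, 0.136 and 0.868. The signs of Gria3, Gabra2 and Grm3 turned in at least 1 of them. From IPC-like to excitatory neuron-like cells Grik4 lost its call in 4 of 13, Grik1 and Grik5 in 2 of 13 and Gabrb1 and Grm3 in 1 of 13, Grm3 with a turned sign. Against RGC-like cells Gabra2 and Grik5 lost theirs in 3 of 13, Gabrb1 and Grin3a in 2 of 13, Gabra3 in 1 of 13 and Grm4 in 1 of 12. Of the other values against RGC-like cells, the log2 ratio in replicate 2 and replicate 4 alone was 5.41 and 7.98 for Gria1, 7.72 and 6.40 for Grik3 and 2.96 and 4.35 for Gabra5, and 2.91 in replicate 2 alone for Grin2a.

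Excitatory neuron-like cells were not uniform. The 949 cells of the other 5 clusters were set beside the 541 cells of the 3 IPC-marked clusters, as a description. Of the 31 genes, 25 were higher in the other 5 clusters without overlap of the libraries (31.8% of all genes) and 2 were lower (36.9% of all genes). Grin2b was at 24.6 and 28.03 CPM in the IPC-marked and 586 and 596 in the other clusters, and Grik3 at 0.886 and 0.367 in the former and 131 and 159 in the latter. Grm5 was at 4.96 and 5.51 CPM in the IPC-marked and 146 and 135 in the other clusters, and Gabbr2 at 5.32 and 3.55 in the former and 51.1 and 56.2 in the latter. For all 4 genes each library of the other clusters lay several-fold above both libraries of the IPC-marked ones. Grik2 went the other way, at 1678 and 1919 CPM in the IPC-marked and 386 and 684 in the other clusters, as did Grik5 by a small margin, at 61.7 and 64.5 in the former and 61.2 and 61.1 in the latter. Gria2 was already at 602 and 565 CPM in the IPC-marked clusters, beside 984 and 892 in the others, and Gabra2 at 152 and 136 beside 199 and 168. Grik4, Grin2d, Grm8 and Gabrg1 overlapped. With the 541 cells left out of the class, 25 receptor genes were called against IPC-like cells, where 6451 of 14913 genes were called, and 23 against RGC-like cells, where 8173 were.

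The clusters differed further by subunit, which is given as description since all came from the same cells. Grik3 was highest in cluster 16, led by Rgs6 and Hs3st4, at 458 and 462 CPM, and lowest of the 5 clusters that were not IPC-marked in cluster 12, led by Adamtsl3 and Cntn2 and with 2 IPC markers raised, at 3.12 and 0.829. Gria2 showed the opposite order in these 2 clusters, 603 and 586 CPM in cluster 16 and 1410.0 and 1294 in cluster 12. Gria3 was at 422 and 436 CPM in cluster 16 and 119 and 137 in cluster 12. Cluster 9, with 23 and 21 cells and led by Slit3, Galntl6 and Lrfn5, had the most Gabra2, 843 and 796 CPM, where the other excitatory neuron-like clusters had at most 359. Its Gabrb1 was at 182 and 261 CPM and its Gabra4 at 37.8 and 34.8. In replicate 2 only cluster 14 had more Gabrb1, and no other excitatory neuron-like cluster had more Gabra4 in either library. Cluster 14, led by Tafa1 and Tafa2, had 15 cells in replicate 2 and 83 in replicate 4. It had the most Grm5, 1035 and 363 CPM, the most Grin3a, 271 and 87.6, and the most Grik1, 182 and 113. Other excitatory neuron-like clusters had at most 12.8 CPM of Grin3a in either library. Grin2b was at 1054 and 1072 CPM in cluster 14 and 1096 and 1036 in cluster 16, and at 3.93 and 2.65 in the IPC-marked cluster 3. Among RGC-like cells, cluster 6, led by the division genes Top2a and Hist1h1b, was at 169.7 and 98.8 CPM of Gabrb1 and 127 and 114 of Grik1, and cluster 5, without division genes among its leading genes, at 61.03 and 58.6 CPM of Gabrb1 and 15 and 47.9 of Grik1. Cluster 11, led by the division genes Cdc20 and Cenpa, was the lowest of the 3 RGC-like clusters in both genes, at 33.2 and 7.73 CPM of Gabrb1 and 9.67 and 2.58 of Grik1.

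**Figure D3:**
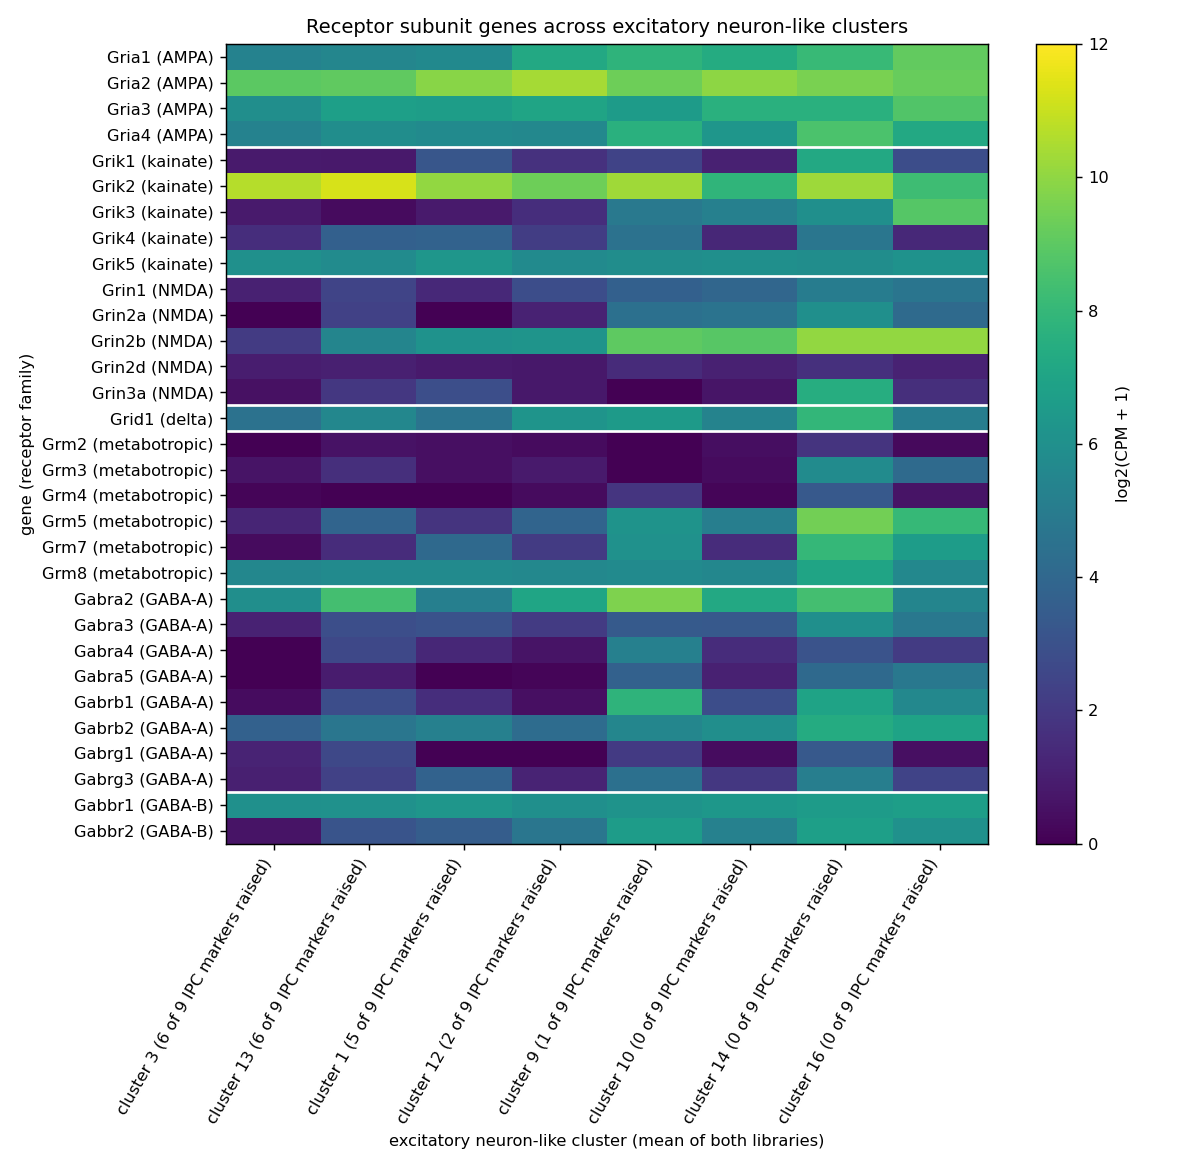
Receptor genes (rows) in the 8 excitatory neuron-like clusters, with colour for the mean level of both libraries in each cluster and the number of raised IPC markers in the labels. Grik3 is highest in cluster 16, Gabra2 in cluster 9 and Grm5 and Grin3a in cluster 14, while Grik2 is highest in cluster 13, at 2193 and 2755 CPM.

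Migrating interneurons and local excitatory neurons were compared next. With MGE interneuron-like cells set against excitatory neuron-like ones, 15 of 31 receptor genes were called, 12 higher and 3 lower. Over all genes 20.2% were called, 7.52% higher and 12.7% lower. The median log2 fold change of the 31 genes was 0.90, beside -0.097 over all genes. Between these classes the libraries did not overlap for 65.6% of all genes. Median depth was 23451 and 10737 UMIs per MGE interneuron-like cell, beside 34164 and 24861 per excitatory neuron-like cell. Without the 541 cells of IPC-marked clusters 16 receptor genes were called, where 3053 of 14913 genes were.

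The AMPA receptor genes took opposite directions. Gria1 was at 3612 and 3307 CPM in MGE interneuron-like and 194 and 218 in excitatory neuron-like cells (edgeR log2 fold change 4.001 ± 0.67, adjusted p = 0.00103), and Gria4 at 3159.5 and 3552 against 94.9 and 105 (edgeR log2 fold change 5.001 ± 0.54, adjusted p = 3.87e-05). Interneurons lay far above in both libraries for both genes. Gria3 was lower in interneurons, at 57.01 and 59.1 against 186 and 190.3 CPM (edgeR log2 fold change -1.76 ± 0.33, adjusted p = 0.00213), and Gria2, at 374 and 399.8 against 878 and 777 CPM, did not overlap but was not called (edgeR log2 fold change -1.16, adjusted p = 0.0684). With the library as a block Gria2 was called (edgeR log2 fold change -1.18, adjusted p = 0.0288, in a range of 0.000116 to 0.172 over all alternatives). Of the UMIs of the 4 AMPA genes, Gria2 made up 5.19% (4.74% to 5.67%) in replicate 2 and 5.46% (4.98% to 5.98%) in replicate 4 of MGE interneuron-like cells, with 95% Clopper-Pearson intervals, and 64.9% and 60.2% in excitatory neuron-like cells. Gria1 made up 50.2% and 45.2% in interneurons against 14.4% and 16.9% in excitatory neuron-like cells, and Gria4 43.9% and 48.5% against 7.01% and 8.16%. Such shares are read between classes only, since the UMI counts of different genes are not on a per-length scale.

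With each cell thinned to 5000 UMIs, 100% and 97.3% of MGE interneuron-like cells had a Gria1 UMI (100% and 96.3% unthinned), beside 33.1% and 32.6% of excitatory neuron-like cells (54.4% and 47.7% unthinned). In hem or choroid plexus-like cells, which are not neurons and had 1 and 2 Gria1 UMIs in all, the thinned share was 0% of 58 and of 74 cells, which allows up to 5.17% and 4.05% (1.61% and 2.47% unthinned, at median depths of 32172 and 26898 UMIs), so both neuronal classes lay above it. For Gria4 the shares were 100% and 100% in interneurons (100% and 98.8% unthinned), 21.3% and 22.6% in excitatory neuron-like cells (42.3% and 39.9% unthinned) and 1.72% and 8.11% in hem or choroid plexus-like cells (6.45% and 18.5% unthinned), where Gria4 was at 3.71 and 19.5 CPM. Thinning left out 9 MGE interneuron-like, 32 excitatory neuron-like and 11 hem or choroid plexus-like cells with fewer UMIs.

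Of the 5 kainate receptor genes Grik1, Grik2 and Grik3 were higher in interneurons, of the 5 NMDA receptor genes Grin2d was higher and Grin2a lower, and the delta receptor gene Grid1 was higher. Grik1 was at 1146 and 1039 CPM in MGE interneuron-like and 8.30 and 12.8 in excitatory neuron-like cells (edgeR log2 fold change 6.62 ± 0.51, adjusted p = 2.3e-06). It made up 30.1% and 33.5% of kainate receptor UMIs in interneurons and 0.908% and 0.979% in excitatory neuron-like cells. Grik3 was at 348 and 411 against 95.2 and 103 CPM (edgeR log2 fold change 1.87 ± 0.32, adjusted p = 0.0016), and Grik2 at 2243 and 1566 against 744 and 1119 CPM (edgeR log2 fold change 0.97 ± 0.24, adjusted p = 0.0139). Neither overlapped. Without the IPC-marked excitatory clusters the log2 fold change was 1.26 for Grik3 and 1.71 for Grik2. Grid1 was higher at 244 and 346 against 53.6 and 58.2 CPM (edgeR log2 fold change 2.33 ± 0.54, adjusted p = 0.00819). Of the NMDA receptor genes, Grin2b was at 849 and 768 against 431 and 396 CPM, with an edgeR adjusted p of 0.068 and no call, but was called with the library as a block (log2 fold change 0.90, adjusted p = 0.0334, in a range of 0.00254 to 0.515 over all alternatives). Grin2d, a subunit with slow currents, had 11 and 6 UMIs in interneurons and 28 and 21 in excitatory neuron-like cells and was higher per UMI sequenced (edgeR log2 fold change 2.58, adjusted p = 0.00578). Grin2a had 0 and 1 UMIs in interneurons and 344 and 241 in excitatory neuron-like cells, and was lower (CPM ratio 31.5, 95% counting interval 5.63 to 1246 for excitatory neuron-like over interneuron-like cells, edgeR adjusted p = 0.0207).

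Grm5, the metabotropic receptor with the smallest adjusted p here, was at 871 and 1434 CPM in MGE interneuron-like and 107 and 89.4 in excitatory neuron-like cells (edgeR log2 fold change 3.49 ± 0.25, adjusted p = 1.29e-06). Thinned, 62.3% and 58.1% of interneuron-like, 12.5% and 13.01% of excitatory neuron-like and 3.45% and 0% of hem or choroid plexus-like cells had a Grm5 UMI (unthinned 64.8% and 57.3% of interneuron-like, 21.7% and 20.02% of excitatory neuron-like and 4.84% and 2.47% of hem or choroid plexus-like cells), and the 0 of 74 thinned cells of replicate 4 allows up to 4.05%. Grm4 was at 15.3 and 17.3 against 1.03 and 0.345 CPM, from 19 UMIs in each library of interneurons (edgeR log2 fold change 4.47, adjusted p = 0.000443, and 3.46 in replicate 2 alone). Grm3, which lowers cyclic AMP, was at 32.9 and 75.4 against 4.52 and 9.48 CPM (edgeR log2 fold change 2.86 ± 0.66, adjusted p = 0.00798). Grm7 and Grm8 were not called. Within MGE interneuron-like cells the sub-clusters differed, with Grm5 at 1796 and 2835 CPM in sub-cluster 3 and 198 and 311 in sub-cluster 1, given as description.

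The GABA-A receptor genes Gabrg3 and Gabra3 were higher in interneurons. Gabrg3, a gamma subunit, was at 285 and 554 CPM against 5.06 and 7.24 (edgeR log2 fold change 6.01 ± 0.51, adjusted p = 4.88e-06) and made up 51.1% and 59.1% of GABA-A UMIs in interneurons against 1.69% and 2.64%. Gabra3 was at 57.01 and 59.98 against 12.5 and 13.1 CPM (edgeR log2 fold change 2.13 ± 0.28, adjusted p = 0.000166). Neither gene overlapped between the classes, as for 65.6% of all genes. Gabrb1 had 3 and 11 UMIs in interneurons and was lower, at 2.41 and 9.996 against 26.6 and 27.98 CPM (edgeR log2 fold change -2.25 ± 0.46, adjusted p = 0.00477). In each library alone its log2 ratio was -3.34 and -1.53, and with cells of at most 5% mitochondrial UMIs the direction turned, to 1.31 with an edgeR adjusted p of 0.00404, in a range of 3.43e-07 to 0.237 over all alternatives. Gabra2 was at 94.7 and 184 against 186 and 156 CPM, Gabrb2 at 106 and 117 against 58.6 and 56.9 and Gabra5 at 12.8 and 10.9 against 4.96 and 8.28, none of them called. Gabbr1, at 86.7 and 98.1 against 78.7 and 78.2 CPM, and Gabbr2, at 32.1 and 57.3 against 38.4 and 37.7, were not called either. Of the 15 calls of this comparison 11 were made under every alternative, and Gabrb1 lost or reversed its call in 5 of 13, Grik3 in 3 of 13 and Grik2 and Grin2a in 2 of 13, the last with a turned sign at most 5% mitochondrial UMIs.

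**Figure D4:**
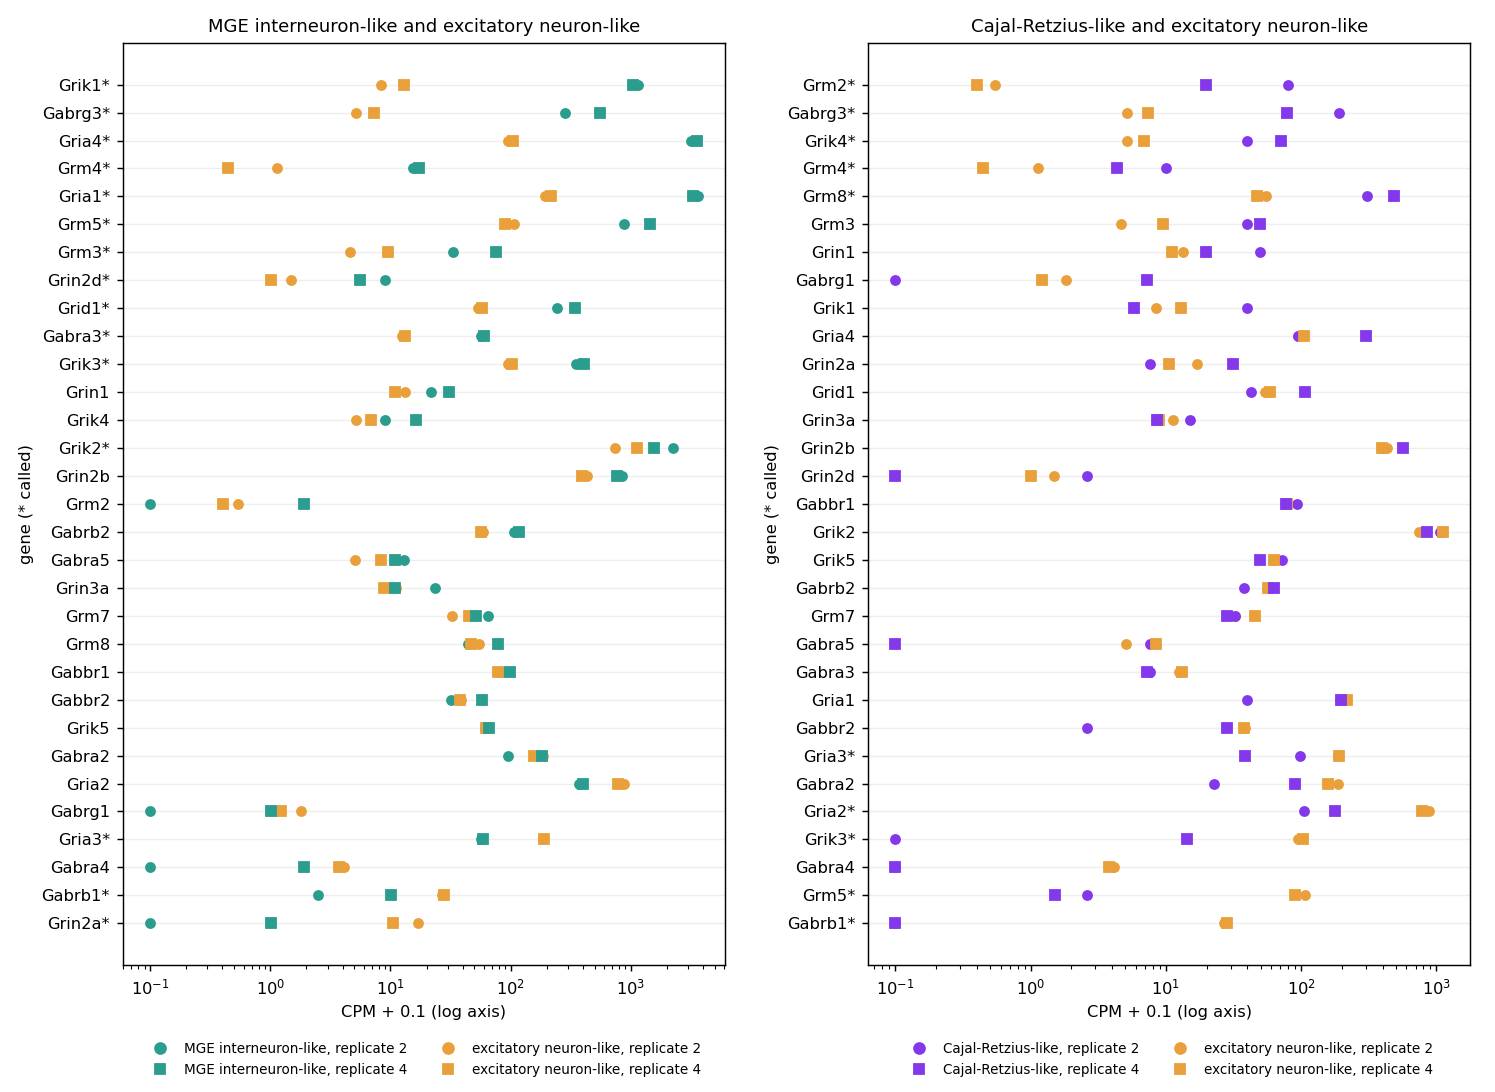
CPM + 0.1 on a log axis of each receptor gene in MGE interneuron-like and excitatory neuron-like cells (left) and in Cajal-Retzius-like and excitatory neuron-like cells (right), 1 point per library, ordered by the ratio of the classes' summed CPM, with an asterisk for called genes. Grik1, Gabrg3 and Gria4 head the left panel with both interneuron points far to the right, and Grm2 and Gabrg3 head the right panel.

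**Figure D5:**
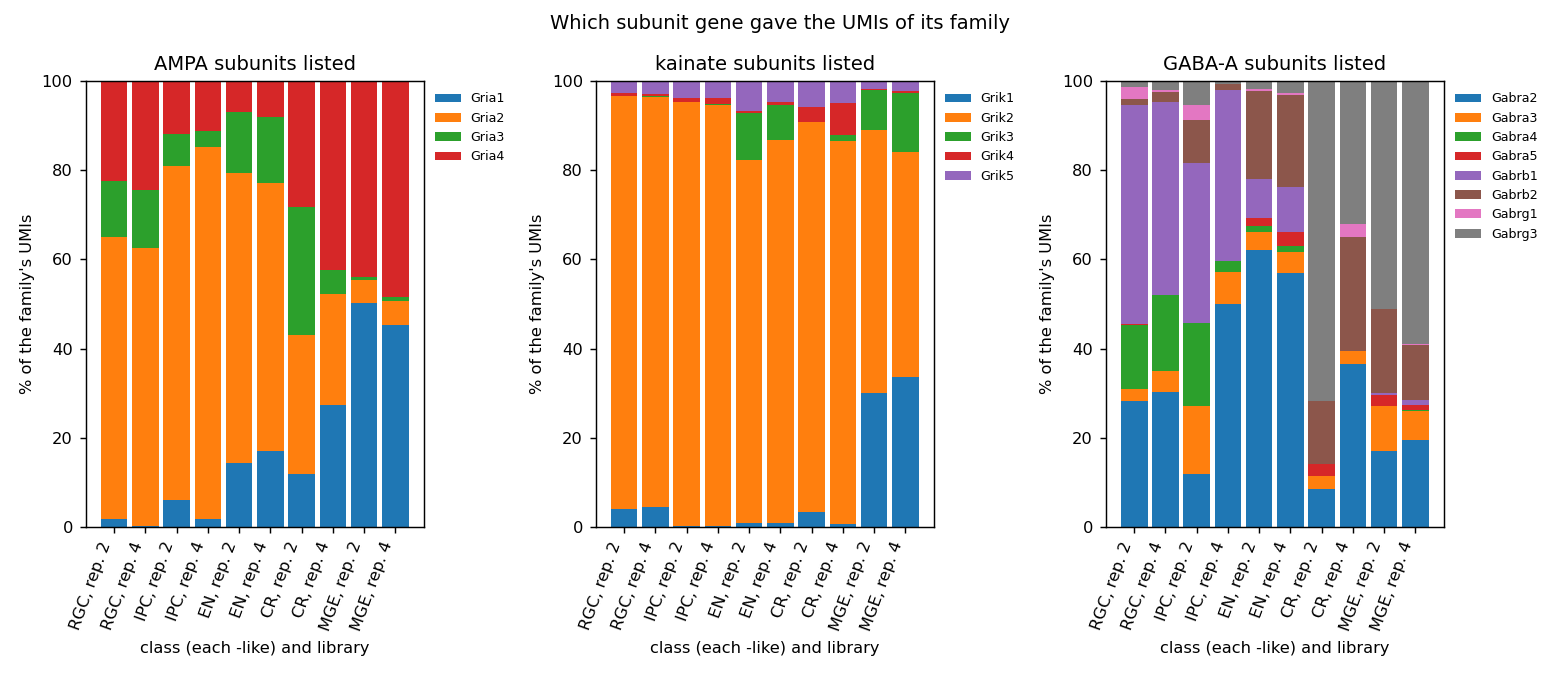
Share of each subunit in the UMIs of its family (AMPA, kainate and GABA-A), as stacked bars from 0% to 100%, by cell class and library. Gria2 takes 64.9% and 60.2% of AMPA UMIs in excitatory neuron-like cells and 5.19% and 5.46% in MGE interneuron-like cells, and Gabrb1 takes 49.04% and 43.2% of GABA-A UMIs in RGC-like cells.

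As a second glutamatergic type, Cajal-Retzius-like cells, only 16 and 24 in number, were set against excitatory neuron-like ones. Of the 31 receptor genes 10 were called, 5 higher and 5 lower, where 16% of all genes were called (7.35% higher and 8.69% lower). The median log2 fold change was -0.22, beside -0.12 over all genes. Between these classes the libraries did not overlap for 60.2% of all genes. The 10 GABAergic markers together were at 4.98 CPM in Cajal-Retzius-like cells of replicate 2 (8 of 10 at 0) and 103 CPM in replicate 4 (2 of 10 at 0), and Gad1, which makes GABA, had 0 and 14 UMIs. The 8 MGE interneuron markers were at 132 and 470 CPM, and those of hem or choroid plexus at 2273 and 1625. The part of these other cells in the results was not tested.

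The 5 genes higher in Cajal-Retzius-like cells were Grm2, Gabrg3, Grik4, Grm4 and Grm8. Grm2, a receptor that lowers cyclic AMP, was at 79.7 and 19.8 CPM, from 32 and 14 UMIs, against 0.442 and 0.302 CPM in excitatory neuron-like cells (edgeR log2 fold change 6.65 ± 0.83, adjusted p = 0.000185). No other of the 7 classes reached 2 CPM in either library. Grm8 was at 307 and 482 against 54.9 and 47.1 CPM (edgeR log2 fold change 2.72 ± 0.46, adjusted p = 0.00156), above every other of the 7 classes in both libraries, and Grik4 at 39.9 and 70.8 against 5.06 and 6.81 (edgeR log2 fold change 3.02 ± 0.42, adjusted p = 0.00043). Gabrg3 was at 189 and 77.9 against 5.06 and 7.24 CPM (edgeR log2 fold change 4.09 ± 0.54, adjusted p = 0.000269), higher in the library with the fewer GABAergic marker UMIs. In each library alone the log2 ratio was 6.39 and 4.77 for Grm2 and 4.84 and 3.14 for Gabrg3. Grm4 came from 4 and 3 UMIs in Cajal-Retzius-like cells (edgeR log2 fold change 2.97, adjusted p = 0.0401), and this call was lost in 7 of 13 alternatives, with an adjusted p of up to 0.127. Grm3, at 39.9 and 49.6 against 4.52 and 9.48 CPM, was not called (edgeR adjusted p = 0.0511), but was with the library as a block (log2 fold change 2.37, adjusted p = 0.0004, in a range of 4.25e-06 to 0.185 over all alternatives).

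Lower in Cajal-Retzius-like cells were Gria2, at 105 and 177 against 878 and 777 CPM (edgeR log2 fold change -2.77 ± 0.46, adjusted p = 0.00134), and Gria3, at 97.2 and 38.2 against 186 and 190.3 (edgeR log2 fold change -1.84 ± 0.36, adjusted p = 0.00433). The log2 ratio in replicate 2 alone was -3.36 for Gria2, and for Gria3 it was -1.22 in replicate 2 and -2.53 in replicate 4. Grik3 had 0 and 10 UMIs (edgeR log2 fold change -3.72 ± 0.59, adjusted p = 0.00131), all of them in the library with more GABAergic marker UMIs. Its log2 ratio was -3.05 in replicate 4 alone, while -8.14 in replicate 2 rests on the prior count, at 0 UMIs. Its call was lost in 2 of 13 alternatives. Grm5 had 1 and 1 UMI per library, with a CPM ratio of 54.01 for excitatory neuron-like over Cajal-Retzius-like cells (95% counting interval 14.9 to 446, edgeR adjusted p = 2.68e-05). Gabrb1 had 0 UMIs in both libraries, at least 10.1-fold lower against a floor of 3 UMIs over both libraries (edgeR adjusted p = 0.00159, lost in 2 of 13 alternatives). Gria1, at 39.9 and 195 CPM, and Gria4, at 94.7 and 303 CPM, differed widely between the libraries of Cajal-Retzius-like cells, were lower in the library with few GABAergic marker UMIs, and were not called. Gabra2, at 22.4 and 89.2 against 186 and 156 CPM, was not called (edgeR adjusted p = 0.0676), but was with the library as a block (log2 fold change -1.79, adjusted p = 0.0417, in a range of 1.11e-05 to 0.145 over all alternatives).

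Genes that assist these receptors were followed in the same fit, 35 auxiliary subunits, scaffolds and ligands of which 34 were tested (Cbln4 was not). From RGC-like to IPC-like cells 4 were higher and 9 lower, beside 13.3% and 12.9% of all genes. From IPC-like to excitatory neuron-like cells 23 were higher and 3 lower (19.6% and 17% of all genes), and against RGC-like cells 21 were higher and 2 lower (28.1% and 24.4%). Shisa6, an AMPA receptor auxiliary subunit, was at 5.12 and 6.99 CPM in RGC-like, 44.7 and 32.1 in IPC-like and 163 and 153 in excitatory neuron-like cells (edgeR log2 fold change 2.74 ± 0.50, adjusted p = 0.00157 for the first step). The TARP Cacng2, which brings AMPA receptors to synapses, had 0 and 0 UMIs in RGC-like, 2 and 0 in IPC-like and 485 and 535 in excitatory neuron-like cells (edgeR adjusted p = 1.73e-05 against IPC-like cells). Its relative Cacng5 peaked in IPC-like cells, at 1.75 and 2.40 CPM in RGC-like, 13.3 and 4.62 in IPC-like and 0.295 and 0.474 in excitatory neuron-like cells (edgeR log2 fold change 2.17 and -4.32 in the 2 steps, adjusted p = 0.024 and 0.000427).

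Cnih3, another AMPA auxiliary subunit, was at 28.5 and 19 CPM in RGC-like, 1.33 and 3.41 in IPC-like and 39.2 and 33.9 in excitatory neuron-like cells, and fell in the first step (edgeR log2 fold change -3.19 ± 0.38, adjusted p = 6.83e-05). Kctd8 and Kctd12, auxiliary subunits of the GABA-B receptor, had 1 UMI each per library in IPC-like cells. Kctd8 had 28 and 55 UMIs in RGC-like cells and 1995 and 2804 in excitatory neuron-like cells, and Kctd12 had 102 and 16 and 570 and 637. Both were lower in IPC-like than in RGC-like cells (edgeR adjusted p = 0.00153 for Kctd8 and 0.0224 for Kctd12) and higher in excitatory neuron-like than in IPC-like cells (edgeR adjusted p = 2.41e-07 and 0.000369). Homer2, a scaffold of group I metabotropic receptors, was at 48.4 and 61.8 CPM in IPC-like and 20.9 and 19.1 in excitatory neuron-like cells and fell (edgeR log2 fold change -1.33 ± 0.29, adjusted p = 0.00319), while Dlg3 fell by 0.45 on the log2 scale (edgeR adjusted p = 0.0232). Cbln2, a ligand that binds neurexins and delta receptors, had 3 and 0 UMIs in RGC-like, 8 and 14 in IPC-like and 142 and 135 in excitatory neuron-like cells and was called in the first step (edgeR adjusted p = 0.0106) and against RGC-like cells (edgeR adjusted p = 0.000239).

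In the same contrast of MGE interneuron-like with excitatory neuron-like cells, 10 of the 34 assisting genes were higher and 6 lower, beside 7.52% and 12.7% of all genes. Cacng3, a TARP, was at 108 and 75.4 against 0.0491 and 0.345 CPM (edgeR log2 fold change 8.61 ± 0.56, adjusted p = 6.68e-06), and Neto1, an auxiliary subunit of kainate receptors, at 678 and 288 against 2.16 and 2.37 (edgeR log2 fold change 7.66 ± 0.55, adjusted p = 2.71e-06). Grip1, a scaffold of AMPA receptors, was at 4640.1 and 4351 against 495 and 521 CPM (edgeR log2 fold change 3.08 ± 0.19, adjusted p = 3.71e-07). All 3 lay higher in both libraries of interneurons. Cnih3 was lower, at 3.21 and 3.63 against 39.2 and 33.9 CPM (edgeR log2 fold change -3.48 ± 0.46, adjusted p = 0.000175), as were Shisa6 (edgeR log2 fold change -1.69, adjusted p = 0.0208) and Homer2 (-1.53 and 0.0406). In Cajal-Retzius-like cells 2 were higher and 9 lower, beside 7.35% and 8.69% of all genes. The 2 were Homer2 at 97.2 and 144 against 20.9 and 19.1 CPM (edgeR log2 fold change 2.38 ± 0.33, adjusted p = 0.000374) and Cacng4 (edgeR log2 fold change 0.88, adjusted p = 0.0267). Of the 9 that were lower, Cnih3 had 0 and 2 UMIs (edgeR adjusted p = 0.000539), and Shank2 and Neto2 had log2 fold changes of -2.003 and -1.88 (edgeR adjusted p = 0.0087 and 0.00142).

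The chloride transporters set whether open GABA-A channels depolarise a cell, Slc12a2 by loading chloride and Slc12a5 by extruding it. Slc12a2 was at 64.7 and 63.2 CPM in RGC-like, 25.5 and 28.96 in IPC-like, 41.8 and 36.1 in excitatory neuron-like and 26.5 and 39.1 in MGE interneuron-like cells. It fell from RGC-like to IPC-like cells (edgeR log2 fold change -1.13 ± 0.23, adjusted p = 0.00283) and rose from there to excitatory neuron-like cells (edgeR log2 fold change 0.65 ± 0.22, adjusted p = 0.0388). Slc12a5 was at 4.44 and 2.09 CPM in RGC-like, 2.92 and 1.46 in IPC-like, 2.50 and 4.27 in excitatory neuron-like and 16.9 and 16.4 in MGE interneuron-like cells. Of these classes MGE interneuron-like cells were highest in both libraries. Slc12a5 was higher there than in excitatory neuron-like cells (edgeR log2 fold change 2.22 ± 0.45, adjusted p = 0.00387), with no call in the steps of the excitatory lineage. Other GABAergic cells were at similar levels, 18.3 and 15.4 CPM in those without a sub-class and 16.6 in striatal projection neuron-like cells of replicate 4.

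Classes with fewer than 10 cells in a library, and classes of no comparison, are given as values. In the 65 striatal projection neuron-like cells of replicate 4, Gria1 was at 901 CPM, Grik3 at 429, Grin2b at 701, Grm5 at 578, Grm7 at 247 and Grid1 at 479. In the 7 and 27 CGE or LGE interneuron-like cells, from other subpallial eminences, Gria1 was at 136 and 53.9 CPM and Grik1 at 0 and 3.37, whereas MGE interneuron-like cells were at 3612 and 3307 CPM of Gria1 and 1146 and 1039 of Grik1. Grik3 was at 497 and 731 CPM in these cells, above both libraries of MGE interneuron-like cells, and Grm5 had 0 UMIs in both libraries. Hem or choroid plexus-like cells had 210.1 and 234 CPM of Gabra2, 259 and 287 of Gabrb1, 33.4 and 11.8 of Gabrg1 and 23.6 and 29.02 of Gabra4. All 4 genes of the chromosome 5 group were thus present there, and 3 of them were highest in this class among the 6 ranked, as were 20.2% of all genes. In vascular or meningeal-like cells, which include cluster 20, Grm7 was at 101 and 83.97 CPM and Grm3 at 33.04 and 125.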

How the data were processed

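Single-cell RNA sequencing of 2 WT libraries was used. Gene counts (UMIs per gene and barcode) were made by the authors and deposited as filtered matrices, and the submitters' processing notes name Cell Ranger 7.0.0 and mm10. Settings for strand and intronic reads are not given in the sources used here. Barcodes with under 1000 genes, over 10% mitochondrial UMIs or a Scrublet doublet call (12 and 48) were left out. Cells of both libraries were clustered together in scanpy 1.11.5 on 2000 variable genes without the receptor genes (30 components, 20 neighbours, Leiden resolution 1), giving 22 clusters and, within GABAergic cells, 9 sub-clusters. Markers counted as raised at a log2 difference of 1 in 25% of cells or more, and 3 of them were needed for a name. Clusters that met no such rule stayed without a name (94 and 85 cells). Of the 3 barcodes present in both libraries, 1 was kept in both.

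UMI counts were summed per library and class, and 7 classes (14 sums) were fitted together in edgeR 4.0.16 (R 4.3.3, TMM, filterByExpr, quasi-likelihood test, Benjamini-Hochberg adjustment over 14156 genes). The hem or choroid plexus-like and vascular or meningeal-like sums entered no comparison and only the shared estimates. The SE is |log2 fold change|/√F, where F is the test statistic. A log2 ratio of a single library is from TMM-scaled CPM with a prior count of 2 and has no test. Where a class had 0 UMIs in that library, the prior count stands in for its level. A class with 0 UMIs in both libraries was given a bound at 3 UMIs, and one with 1 to 3 UMIs a ratio with an exact 95% interval. Intervals and floors cover counting error only.

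The sums of a library come from the same cell suspension, so libraries pair the classes. Deviations of the 10 pairs among the 5 classes that entered comparisons correlated at 0.0479 to 0.245 (median 0.106), and a fit with the library as a block was an alternative. In counts simulated from these sums with 200 changed genes, 2-fold and 4-fold changes were recovered for 50.5% and 82% of genes in IPC-like against RGC-like sums (13860 genes), 56.7% and 87% in excitatory neuron-like against IPC-like (13849), 52.0% and 89.9% in excitatory neuron-like against RGC-like (13793), 43% and 87% in MGE interneuron-like against excitatory neuron-like (13697) and 30% and 87% in Cajal-Retzius-like against excitatory neuron-like (13764).

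The receptor genes and all marker and partner lists were chosen with earlier results of these data known. All 31 receptor genes were to be named, giving values per library for those called with at least 20 UMIs in each library of the higher class, and of the assisting genes up to 3 called per direction with the largest changes, plus Slc12a2 and Slc12a5. Fewer UMIs are printed where a sentence turns on them. Alternatives covered normalisation, DESeq2 1.42.0, filters, doublets, clustering, classes and tests from separate parts of the UMIs, and thinning to 5000 UMIs. Comparisons of CGE or LGE interneuron-like and striatal projection neuron-like cells were planned but not run, since replicate 2 held under 10 cells of each.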

Additional observations from a re-analysis of the deposited data

Results flagged for a closer look

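Receptor transcripts were also counted outside the cells compared. Barcodes with under 1000 detected genes (442 in replicate 2 and 423 in replicate 4) held 737 UMIs of the 31 receptor genes, 463 and 274, or 661 and 280.0 CPM, beside floors of 4.28 and 3.07 CPM for 3 UMIs. Barcodes with over 10% mitochondrial UMIs (59 and 195) held 4588, that is 688 and 3900, or 2019 and 3444 CPM, beside floors of 8.80 and 2.65 CPM. Kept cells in clusters without a name (94 and 85) held 2706, that is 1442 and 1264, or 1943 and 1491 CPM, beside floors of 4.04 and 3.54 CPM. All kept cells together were at 3223 and 3406 CPM. In each set the level was above its floor, which flagged it.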

How the results depend on the processing

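Each of the 75 called fold changes was recomputed under up to 13 alternatives. Of 962 values, 904 kept direction and call, 50 kept the direction without the call and 8 turned sign. Calls numbered 7, 22, 21, 15 and 10 in the order of the comparisons (IPC-like against RGC-like, excitatory neuron-like against IPC-like and against RGC-like, MGE interneuron-like and Cajal-Retzius-like against excitatory neuron-like). They moved by over 1.5 times only from RGC-like to IPC-like cells with all genes of at least 1 count, to 14, where 4055 of 24964 genes were called and 37.6% of these were higher. Signs turned for Gria3 (0.21, Leiden resolution 2), Grm3 (0.18, separate parts of the UMIs) and Gabra2 (0.24 at most 5% mitochondrial UMIs, 0.67 with receptor genes among the variable genes and 0.0031 with separate parts) in IPC-like against RGC-like, for Grm3 (-0.35, separate parts) in excitatory neuron-like against IPC-like, and for Grin2a (0.26) and Gabrb1 (1.31) in the MGE interneuron-like comparison, both at most 5% mitochondrial UMIs. The causes were not tested.

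With the library as a replicate block the calls numbered 7, 22, 21, 17 and 12 (3952, 5425, 7689, 2999 and 2336 of 14156 genes over all), no call of the fit without the block was lost, and Gria2 and Grin2b (MGE interneuron-like) and Grm3 and Gabra2 (Cajal-Retzius-like) gained one. Without the IPC-marked excitatory clusters, an alternative chosen after seeing the data, they numbered 25, 23, 16 and 10 in the latter 4 comparisons (6451, 8173, 3053 and 2582 of 14913 genes over all). Leaving out a library leaves a value with no test, and of 150 such values 49 moved by more than the spread between libraries. DESeq2 size factors moved the all-gene median of IPC-like against RGC-like from -0.0058 to -0.11 and the share of calls that were higher from 50.8% to 41.0%, and in Cajal-Retzius-like against excitatory neuron-like cells that share was 45.8%, or 60.04% with the DESeq2 Wald test. Thinning moved 134 of 155 shares of cells and 52 of 150 family shares by more than their interval or spread. Small classes limit precision, with 16 and 24 Cajal-Retzius-like cells. The CGE or LGE and striatal comparisons and their alternatives were not run.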
